A study of Homo sapiens with 24 samples.

Results

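The collagen chain genes are the genes whose symbol reads COL, a number, A and a number, and each encodes a chain of a collagen. They were taken from the probe annotation, from probe sets that carry a single gene symbol, and a gene with several such probe sets was represented by the brightest on average. This gave 43 genes of the 18417 measured. Expression was read from 24 Human Gene 1.0 ST arrays (Affymetrix) of RNA from SUM149PT and SUM190PT, a pair of established lines of inflammatory breast cancer that the labels give as estrogen receptor negative with mutant p53. Each line had 4 groups of 3 arrays: 17β-estradiol plus CG-1521, CG-1521 alone, 10 nM 17β-estradiol alone, and the vehicle (ethanol and DMSO), all for 48 h. CG-1521, which the series title names as a histone deacetylase inhibitor, was given at 7.5 µM to SUM149PT in medium with serum and at 5 µM to SUM190PT, whose medium held no serum during treatment. Line, dose and medium therefore changed together and cannot be told apart in any comparison of the lines. The design text gives the 3 arrays of a group as independent experiments.

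Collagens are triple-helical proteins of the extracellular matrix. Fibrillar collagens form the cables of connective tissue, collagen IV forms the sheet-like network of basement membranes, collagen VI forms beaded filaments, collagen VII anchors the basement membrane to the tissue below it, and fibril-associated collagens decorate the surface of fibrils. In breast tissue most fibrillar collagen is made by fibroblasts, while epithelial and carcinoma cells make basement membrane chains. Histone deacetylase inhibitors raise histone acetylation and change transcription of many genes in both directions.

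By class the 43 genes comprised 11 fibrillar chains, 6 chains of collagen IV, 5 of collagen VI, COL7A1 of the anchoring fibrils, 3 short-chain network collagens, 10 fibril-associated collagens, 3 transmembrane collagens, 2 multiplexins (COL15A1 and COL18A1) and 2 others. Values are log2 RMA expression, so a difference of 1 is 2-fold. Of the 43 genes, 33 lay in the lower 50% of all genes by mean over the 24 arrays, called the dimmer genes here. The other 10 were COL1A1, COL4A2, COL5A3, COL6A1, COL6A2, COL7A1, COL9A3, COL16A1, COL18A1 and COL23A1. Values close to background understate changes on such arrays, and detection calls were not used here. COL17A1 was not analysed here.

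Arrays of a group correlated at 0.9946 to 0.996 across genes in SUM149PT and at 0.9807 to 0.9957 in SUM190PT. Earlier results of these data had 2 SUM190PT arrays standing apart, replicate 3 of vehicle and replicate 3 of estradiol, and calls that end without this pair are named beside the values. The epithelial markers EPCAM, CDH1, KRT8, KRT18 and KRT19 averaged 11.1 to 11.2 (log2) on the SUM149PT arrays and 11.3 to 11.8 on the SUM190PT arrays. The mean of 6 endothelial markers lay between 4.31 and 4.68 and that of 5 leukocyte markers between 4.19 and 4.77 over all arrays. Each array holds RNA of many cells, so fewer cells expressing a gene and less RNA per cell cannot be told apart.

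In vehicle, the 2 lines differed most in a handful of chains of collagens VI, XII and IV. COL6A3, the large chain of collagen VI, was 13.6-fold higher in SUM149PT. COL12A1, a fibril-associated collagen, was 5.59-fold higher, and the basement membrane partners COL4A2 and COL4A1 were 4.68-fold and 3.64-fold higher. Fibrillar chains, of which all but COL1A1 and COL5A3 are dimmer genes, differed little, with 2 of 11 lower in SUM149PT and 0 higher. In all, 8 collagen genes were higher and 5 lower in SUM149PT than in SUM190PT (limma, Benjamini-Hochberg adjusted p under 0.05 over all genes), or 30.2% of 43, against 46.7% of all genes (24.5% higher and 22.1% lower). Among the dimmer genes 24.2% of the collagen genes passed, against 26.4% of all. Among the brighter genes, those not dimmer, 50.0% of the collagen genes passed, against 66.9% of all. The median difference was -0.05 for the collagen genes and -0.02 for all genes, and 30 of the 43 did not pass.

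COL6A3 had 7.97, 8.59 and 8.10 (log2) in the SUM149PT vehicle arrays, against 4.48, 4.71 and 4.17 in the SUM190PT vehicle arrays. The lowest SUM149PT array lay far above the highest SUM190PT array, and the difference was 3.77 (SE 0.169, limma adjusted p = 1.66e-14). The collagen VI chains that assemble with it, COL6A1 and COL6A2, were higher by 0.89 (SE 0.142) and 0.57 (SE 0.0967), so all 3 chains of the common collagen VI trimer were higher in SUM149PT. COL6A5 and COL6A6, the alternative chains, did not pass, with differences of -0.18 and -0.21.

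COL12A1 had 7.58, 7.67 and 7.76 in SUM149PT vehicle, against 5.53, 5.21 and 4.83 in SUM190PT vehicle. The groups did not overlap, and the difference was 2.48 (SE 0.184, adjusted p = 1.09e-10, limma). COL4A2 read 7.45, 7.74 and 7.52 against 5.35, 5.51 and 5.17, a difference of 2.23 (SE 0.116). COL4A1 read 6.47, 6.89 and 6.72 against 5.01, 4.76 and 4.72, a difference of 1.86 (SE 0.109). These 2 chains form the basement membrane heterotrimer found in most tissues. Of the tissue-restricted collagen IV chains, COL4A6 was higher by 0.34 (SE 0.0963) and COL4A5 lower, at -0.76 (SE 0.119), while COL4A3 and COL4A4 did not pass. The fibril-associated COL16A1 was higher by 0.31 (SE 0.0958), a call lost when only the vehicle groups were fitted (limma adjusted p = 0.0529). The call of COL4A6 was lost without the second SUM149PT vehicle array (limma adjusted p = 0.0535).

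Lower in SUM149PT than in SUM190PT were also the transmembrane collagen COL13A1 (-0.68, SE 0.11), the multiplexin COL18A1 (-0.67, SE 0.103), which carries the endostatin fragment, and the fibrillar COL5A2 (-0.53, SE 0.117) and COL5A1 (-0.32, SE 0.123). COL1A1, the main chain of collagen I, had 6.93, 7.09 and 7.07 in SUM149PT vehicle and 7.09, 7.16 and 6.99 in SUM190PT vehicle. The arrays of the lines overlapped, and the difference of -0.05 (SE 0.134) did not pass. The call of COL5A1 was lost without any 1 of the SUM149PT vehicle arrays and without the third SUM190PT vehicle array (limma adjusted p up to 0.18). It was also lost without both replicate 3 arrays named above.

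**Figure D1:**
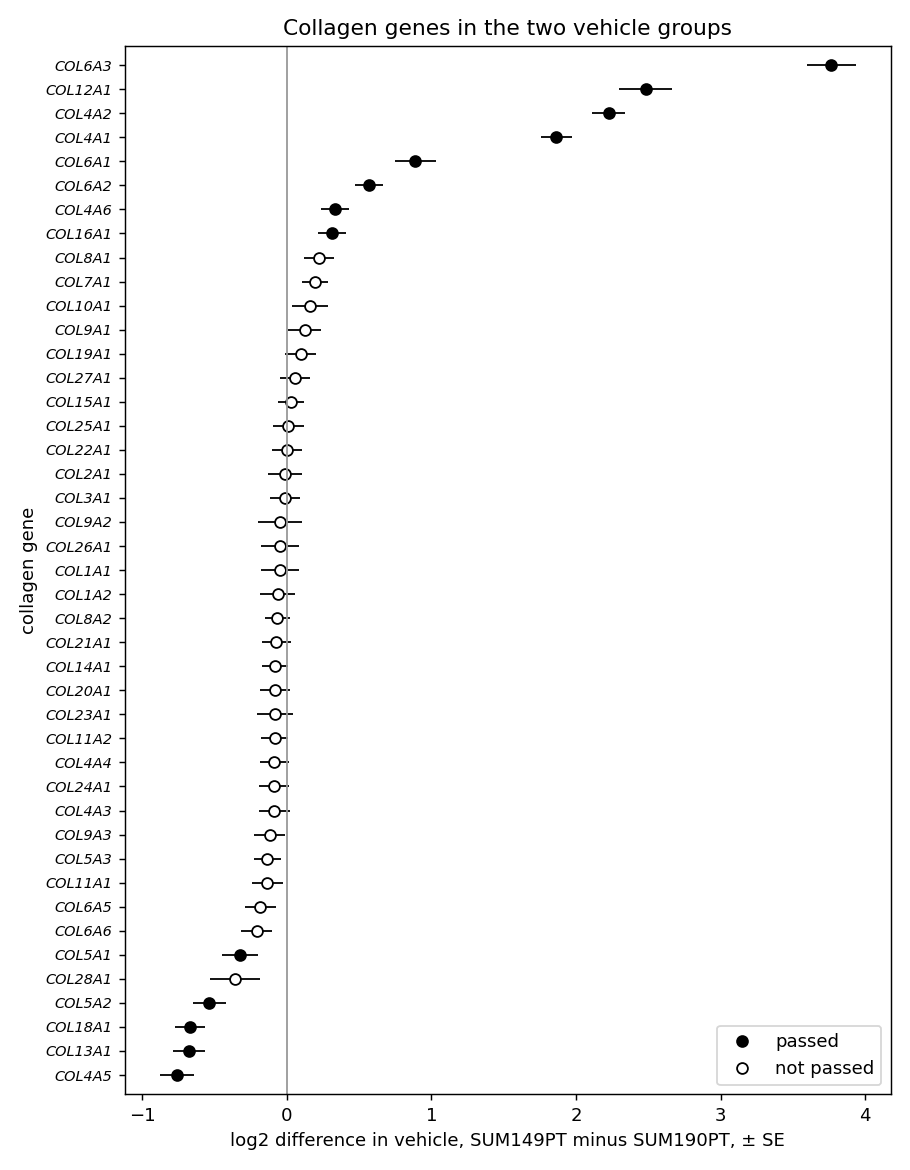
Difference in log2 expression between the vehicle groups, SUM149PT minus SUM190PT, for each of the 43 collagen genes with its standard error, in order of size (3 arrays per line). Filled points passed; COL6A3, COL12A1, COL4A2 and COL4A1 lie at 1.86 or more, and 30 of the 43 genes did not pass.

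In SUM149PT, CG-1521 lowered 5 collagen genes and raised 5. The 5 that fell were COL12A1, COL6A3, COL4A2, COL4A1 and COL6A1, whose differences between the lines in vehicle, given above, use the same SUM149PT vehicle arrays. The 5 that rose, by 1.18-fold to 1.33-fold, were COL7A1, COL4A3, COL4A6, COL13A1 and COL16A1. The 10 genes are 23.3% of the 43, against 34.3% of all genes (14.4% higher and 19.9% lower), and the median change was 0.01 against -0.00 for all genes. Of the 43, 3 changed at least 2-fold, all downwards, against 876 of the 18417 genes that did so in either direction.

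COL12A1 had 5.83, 5.98 and 6.15 with CG-1521, against 7.58, 7.67 and 7.76 in vehicle. All treated arrays lay more than 1 unit below all vehicle arrays, and it fell by 1.69 (SE 0.117, limma adjusted p = 2.0e-08), which is 3.22-fold. COL12A1 was the collagen gene with the largest change in this comparison. In RefSeq (GRCh38.p14) the gene spans chr6:75084326-75206053.

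COL6A3 had 6.93, 6.93 and 6.76 with CG-1521, against 7.97, 8.59 and 8.10 in vehicle. Its arrays did not overlap, and the gene, at chr2:237324018-237414164, fell by 1.35 (SE 0.132, adjusted p = 7.89e-07, limma). COL6A1 fell by 0.45 (SE 0.0911), while the third chain, COL6A2, had -0.02 (SE 0.0803) and did not pass. The 3 chains of 1 trimer thus had unequal values, with COL6A2 at 7.54, 7.50 and 7.42 with CG-1521 and 7.44, 7.51 and 7.57 in vehicle. The chains were not tested against each other.

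COL4A2 had 6.27, 6.29 and 6.15 with CG-1521, against 7.45, 7.74 and 7.52 in vehicle, and fell by 1.34 (SE 0.0976, adjusted p = 3.48e-08, limma). COL4A1 had 5.88, 5.95 and 5.88, against 6.47, 6.89 and 6.72, and fell by 0.79 (SE 0.105). In both genes the 3 treated arrays lay below the 3 vehicle arrays. They lie side by side at chr13:110148963-110307157 (COL4A1) and chr13:110307284-110513209 (COL4A2). The other collagen IV chains went the other way or did not pass: COL4A3 rose by 0.38 (SE 0.108), COL4A6 by 0.35 (SE 0.0962), and COL4A4 and COL4A5 had 0.08 and 0.09. COL4A3 is one of the dimmer genes, with 4.57, 5.01 and 4.82 with CG-1521 against 4.41, 4.42 and 4.42 in vehicle, and its call was lost without the second CG-1521 array (adjusted p = 0.0721). COL4A6 lost its call without the third vehicle array (adjusted p = 0.0573).

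The 6 collagen IV genes sit in 3 head-to-head pairs, whose members are read in opposite directions from a short shared interval. In RefSeq (GRCh38.p14) the starts of COL4A1 and COL4A2 on chromosome 13 are separated by 126 bases, those of COL4A4 and COL4A3 on chromosome 2 by 135 bases, and those of COL4A6 and COL4A5 on chromosome X by 379 bases. With CG-1521 alone in SUM149PT both COL4A1 and COL4A2 fell, while in each of the other pairs 1 member passed and its partner did not. With the combination against estradiol in SUM149PT, COL4A5 (0.37) and COL4A6 (0.42) both rose, and of the third pair COL4A3 passed and COL4A4 did not. COL6A1 and COL6A2, which read the same way on chromosome 21, are separated by 93063 bases.

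The interval between COL4A1 and COL4A2 (chr13:110307158-110307283, plus strand) is printed whole because both genes that it separates fell. The upstream windows of 250 bases are printed for COL12A1 (chr6:75206054-75206303, minus strand) and COL6A3 (chr2:237414165-237414414, minus strand), which fell most beside them, and for COL7A1 (chr3:48595330-48595579, minus strand), which rose. Sequences are RefSeq GRCh38.p14, 5′ to 3′. Capitals mark matches on either strand to the GC box (GGGCGG), the CCAAT box (CCAAT), the TATA box (TATAAA) and the AP-1 site (TGANTCA), and no matches overlap.
COL4A1-COL4A2 interval: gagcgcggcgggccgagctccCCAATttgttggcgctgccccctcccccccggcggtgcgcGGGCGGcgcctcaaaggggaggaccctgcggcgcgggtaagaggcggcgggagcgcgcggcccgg
COL12A1 upstream: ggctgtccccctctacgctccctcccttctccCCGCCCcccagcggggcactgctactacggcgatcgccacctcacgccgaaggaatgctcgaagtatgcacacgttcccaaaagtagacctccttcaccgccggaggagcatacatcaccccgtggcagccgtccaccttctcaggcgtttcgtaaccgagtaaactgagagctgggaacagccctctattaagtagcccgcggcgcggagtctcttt
COL6A3 upstream: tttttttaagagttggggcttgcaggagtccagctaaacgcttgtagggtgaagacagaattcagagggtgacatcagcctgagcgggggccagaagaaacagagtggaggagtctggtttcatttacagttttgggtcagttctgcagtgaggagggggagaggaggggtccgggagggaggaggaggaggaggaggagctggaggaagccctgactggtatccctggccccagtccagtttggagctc
COL7A1 upstream: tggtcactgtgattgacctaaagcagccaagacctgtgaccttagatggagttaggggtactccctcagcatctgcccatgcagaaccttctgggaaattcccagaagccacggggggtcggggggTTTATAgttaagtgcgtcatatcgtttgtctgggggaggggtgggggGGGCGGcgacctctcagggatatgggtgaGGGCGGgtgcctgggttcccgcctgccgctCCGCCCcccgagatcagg

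The COL4A1-COL4A2 interval held 1 CCAAT box and 1 GC box, the COL12A1 window 1 GC box, the COL7A1 window 1 TATA box and 3 GC boxes, and the COL6A3 window none of the 4 motifs. Over 35116 windows of the same length, 42.6% held a GC box, 32.0% a CCAAT box, 10.7% a TATA box and 6.57% an AP-1 site. Of the 31 collagen genes with a window in the table, 17 held a GC box, 7 a CCAAT box, 4 a TATA box and 0 an AP-1 site. Their median GC content was 65.6% with 16 CpG, against 58.0% with 11 CpG for all windows. The COL6A3 window was unlike those of COL4A1, COL4A2 and COL12A1 in its CpG count, 3 against 38, 40 and 21. These counts describe letters in a fixed window only.

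COL7A1, the collagen of anchoring fibrils, and a gene at chr3:48564073-48595329, had 6.88, 6.80 and 6.68 with CG-1521, against 6.40, 6.40 and 6.33 in vehicle. Its arrays did not overlap, and it rose by 0.41 (SE 0.0824, adjusted p = 0.000901, limma). COL13A1, a transmembrane collagen, rose by 0.32 (SE 0.0921). COL16A1, a fibril-associated collagen, rose by 0.23 (SE 0.0759), and its call was lost without the first vehicle array and without the first or second CG-1521 array (adjusted p up to 0.118). COL18A1 had 7.08, 7.09 and 6.87 with CG-1521 and 7.06, 7.05 and 7.07 in vehicle, a change of -0.05 that did not pass.

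None of the 11 fibrillar chains passed in SUM149PT with CG-1521 alone (limma, 0 of 11 also at an unadjusted p under 0.05), and their changes ran between -0.07 and 0.19. COL1A1 had 7.08, 6.82 and 7.08 with CG-1521 and 6.93, 7.09 and 7.07 in vehicle, and its arrays overlapped. The short-chain network collagens COL8A1, COL8A2 and COL10A1, all dimmer genes, did not pass either, with changes between -0.08 and -0.05.

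The same agent was tested on a background of estradiol, with group means from arrays that do not enter the means of the first comparison. All arrays of the line shared the same fit and its estimate of spread, so the calls in both comparisons are not independent. Against estradiol alone, the combination lowered 5 collagen genes of SUM149PT and raised 10, or 34.9% of the 43, against 36.9% of all genes (16.5% higher and 20.4% lower). Among dimmer genes 30.3% of the collagen genes passed, against 17.9% of all, and among brighter genes 50.0%, against 55.9%. The median was 0.11 for the collagen genes and 0.03 for all genes. Of the 10 genes called with CG-1521 alone, 9 (90.0%) were called here in the same direction, and these are 60.0% of the 15. This overlap was not counted over all genes, of which 34.3% passed with CG-1521 alone and 36.9% here, so it has no background share. The 9 were COL12A1, COL6A3, COL4A2, COL4A1, COL6A1, COL7A1, COL4A3, COL4A6 and COL13A1.

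COL12A1 had 5.79, 6.05 and 6.05 with estradiol plus CG-1521, against 7.33, 7.48 and 7.77 with estradiol, and fell by 1.56 (SE 0.117). COL6A3 had 6.82, 6.90 and 6.69 against 8.04, 8.32 and 8.22, and fell by 1.39 (SE 0.132). COL4A2 had 6.33, 6.34 and 6.28 against 7.36, 7.58 and 7.70, and fell by 1.23 (SE 0.0976). In these 3 genes no array of one group reached the range of the other. COL4A1 fell by 0.73 (SE 0.105) and COL6A1 by 0.45 (SE 0.0911), while COL6A2 again did not pass, at -0.12.

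Among the genes that rose with the combination, COL4A3 and COL4A6 both had 0.42, COL7A1 and COL4A5 both 0.37, and the fibrillar COL5A2, COL11A2 and COL5A3 had 0.33, 0.32 and 0.26. COL7A1 read 6.80, 6.87 and 6.90 with the combination against 6.50, 6.35 and 6.59 with estradiol. The fibril-associated COL21A1 rose by 0.28, the transmembrane COL23A1 by 0.27 and COL13A1 by 0.26. The calls of COL13A1, COL5A3, COL23A1, COL21A1, COL5A2 and COL11A2 were each lost without at least 1 array, and the arrays of COL13A1 overlapped between the groups.

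**Figure D2:**
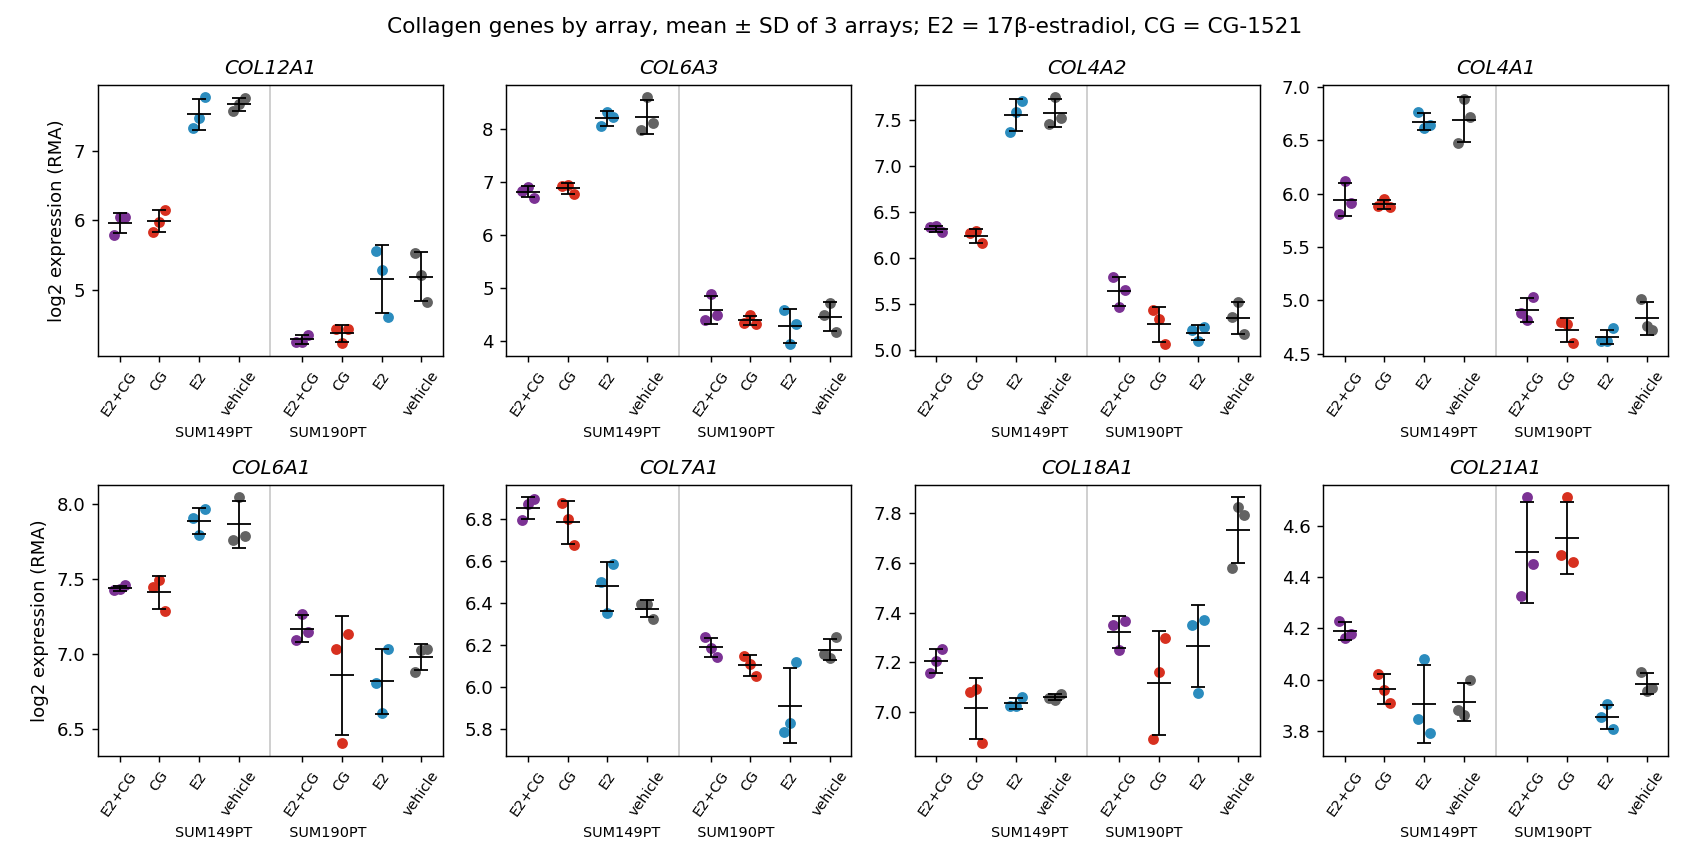
Log2 RMA expression of 8 collagen genes on each array (points), with the mean and SD of 3 arrays per group (lines and bars), for SUM149PT to the left and SUM190PT to the right of the grey line in every panel. COL12A1, COL6A3, COL4A2, COL4A1 and COL6A1 are lower in both groups of SUM149PT that received CG-1521 than in both that did not, while COL7A1 is higher.

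In SUM190PT, CG-1521 alone changed 3 collagen genes: COL12A1 and COL18A1 fell and COL21A1 rose. These are 6.98% of the 43, against 16.6% of all genes (8.32% higher and 8.26% lower). Among dimmer genes 6.06% of the collagen genes passed, against 7.93% of all, and among brighter genes 10.0%, against 25.2%. The median change was -0.11 for the collagen genes and -0.05 for all genes, and no member changed 2-fold. COL4A1, COL4A2, COL6A1 and COL6A3, which fell in SUM149PT, had -0.11, -0.07, -0.12 and -0.07 here and did not pass. In SUM190PT vehicle these 4 averaged 4.83, 5.35, 6.98 and 4.45, and the median of all dimmer genes was 4.50 to 4.63 on those arrays. A fall of COL6A3 or COL4A1 from that level may be understated.

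COL12A1 had 4.44, 4.23 and 4.44 with CG-1521, against 5.53, 5.21 and 4.83 in vehicle. The third vehicle array was the closest to the treated arrays, the groups did not overlap, and COL12A1 fell by 0.82 (SE 0.217, limma adjusted p = 0.0219). The call was lost without the first or second vehicle array or any 1 of the 3 CG-1521 arrays (adjusted p = 0.0716, 0.0683, 0.0597, 0.0607 and 0.0502), and without both replicate 3 arrays named above it fell by 1.00 (adjusted p = 0.000552).

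COL18A1 (chr21:45405165-45513720) had 6.89, 7.16 and 7.30 with CG-1521, against 7.58, 7.82 and 7.79 in vehicle. The groups did not overlap, and it fell by 0.61 (SE 0.129, adjusted p = 0.00659, limma). COL21A1, a fibril-associated collagen among the dimmer genes (chr6:56056590-56394128), had 4.49, 4.71 and 4.46 against 4.03, 3.96 and 3.97, and rose by 0.57 (SE 0.116, adjusted p = 0.00553). Both calls held when any single array was left out. COL7A1 had 6.15, 6.11 and 6.05 with CG-1521 and 6.16, 6.14 and 6.24 in vehicle, and did not pass. COL1A1 had 7.45, 7.04 and 7.75 against 7.09, 7.16 and 6.99, with overlapping arrays and a change of 0.33 (SE 0.162, adjusted p = 0.182).

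Set against estradiol alone, the combination raised 12 collagen genes of SUM190PT and lowered 2, or 32.6% of the 43, against 25.7% of all genes (12.5% higher and 13.2% lower). The median was 0.23 for the collagen genes and 0.07 for all genes, and 39 of 43 lay above 0. So did 10786 of all 18417 genes and 6654 of the 9208 dimmer genes. Among all dimmer genes the median was 0.13, and 17.4% of them passed, against 24.2% of the dimmer collagen genes. Of the 10 brighter collagen genes 6 rose, against 14.0% of all brighter genes. The estradiol group, the reference here, itself lay below vehicle in 40 of the 43 genes (median -0.21), and in 6685 of the 9208 dimmer genes. COL9A3 averaged 6.93 with the combination, 6.49 with estradiol and 6.97 in vehicle, and COL21A1 averaged 4.50, 3.85 and 3.98. The combination was not tested against vehicle. The count of collagen genes called was 5 to 13 when 1 array was left out, with 9 and 5 without the first and second estradiol arrays, and 6 without the first or the third array of the combination. Quantile normalization left 8 higher and 2 lower, and median centring 9 higher and 2 lower. Leukocyte markers averaged 4.50 to 4.67 on the arrays of the combination, against 4.19 to 4.40 on those of estradiol, and 2 of 5 passed, CD14 and CSF1R, both higher, with PTPRC at a mean of 2.82 against 2.88. Epithelial markers averaged 11.4 to 11.5 against 11.6 to 11.8, and 1 of 5 passed, KRT8, which fell by 0.36. The part of these markers in the collagen result was not tested.

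By role, 3 fibrillar chains rose, COL1A1 (0.59, SE 0.162), COL11A1 (0.38, SE 0.13) and COL5A3 (0.36, SE 0.101), and COL5A2 fell by 0.53 (SE 0.136). COL1A1 (chr17:50184101-50201631) had 7.57, 7.26 and 7.68 with the combination, against 6.92, 6.92 and 6.88 with estradiol, and the groups did not overlap. Of collagen IV, COL4A2 rose by 0.45 (SE 0.131) and COL4A3 by 0.31 (SE 0.104). COL4A2, which fell in SUM149PT, had 5.79, 5.47 and 5.65 here against 5.22, 5.09 and 5.24. COL4A1 read 4.88, 4.82 and 5.03 against 4.62, 4.62 and 4.74, and did not pass (0.25, SE 0.112, adjusted p = 0.115).

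COL6A2 rose by 0.74 (SE 0.117, adjusted p = 0.000994, limma), with 7.21, 7.26 and 7.24 against 6.38, 6.39 and 6.70. COL6A2 averaged 7.23 with the combination, 6.49 with estradiol and 6.94 in vehicle. COL6A1 and COL6A3 had 0.35 and 0.30 and did not pass, with the dimmer COL6A3 at a mean of 4.58 against 4.28. A difference between the chains of collagen VI was not tested. Among the fibril-associated collagens COL21A1 rose by 0.64, COL16A1 by 0.53, COL20A1 by 0.45, COL9A3 by 0.44 and COL22A1 by 0.39. COL8A2, a short-chain network collagen, rose by 0.37, and COL7A1 had 0.28 (adjusted p = 0.0688) and did not pass. The calls of COL6A2, COL21A1, COL16A1, COL20A1 and COL5A2 held without any single array, and those of the other 9 genes did not. Without both replicate 3 arrays named above, COL11A1 (adjusted p = 0.0544) and COL9A3 (adjusted p = 0.0537) lost the call. COL4A3, COL11A1 and COL22A1 also lost it under both scalings, and COL4A2 under quantile normalization.

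COL12A1 fell by 0.87 (SE 0.217, adjusted p = 0.0126, limma). It had 4.25, 4.25 and 4.35 with the combination, against 5.56, 5.29 and 4.61 with estradiol. Its call was lost without the first or second estradiol array (adjusted p = 0.0532 and 0.0529), and without both replicate 3 arrays it fell by 1.14. COL12A1 and COL21A1 were the 2 collagen genes called both with CG-1521 alone and with the combination in SUM190PT, 66.7% of 3 and 14.3% of 14. The overlap over all genes was not counted. COL18A1 had 7.35, 7.25 and 7.37 with the combination and 7.35, 7.08 and 7.37 with estradiol, and did not pass (0.06, SE 0.129). COL12A1 was the member that fell in all 4 comparisons of CG-1521 with its own control.

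**Figure D3:**
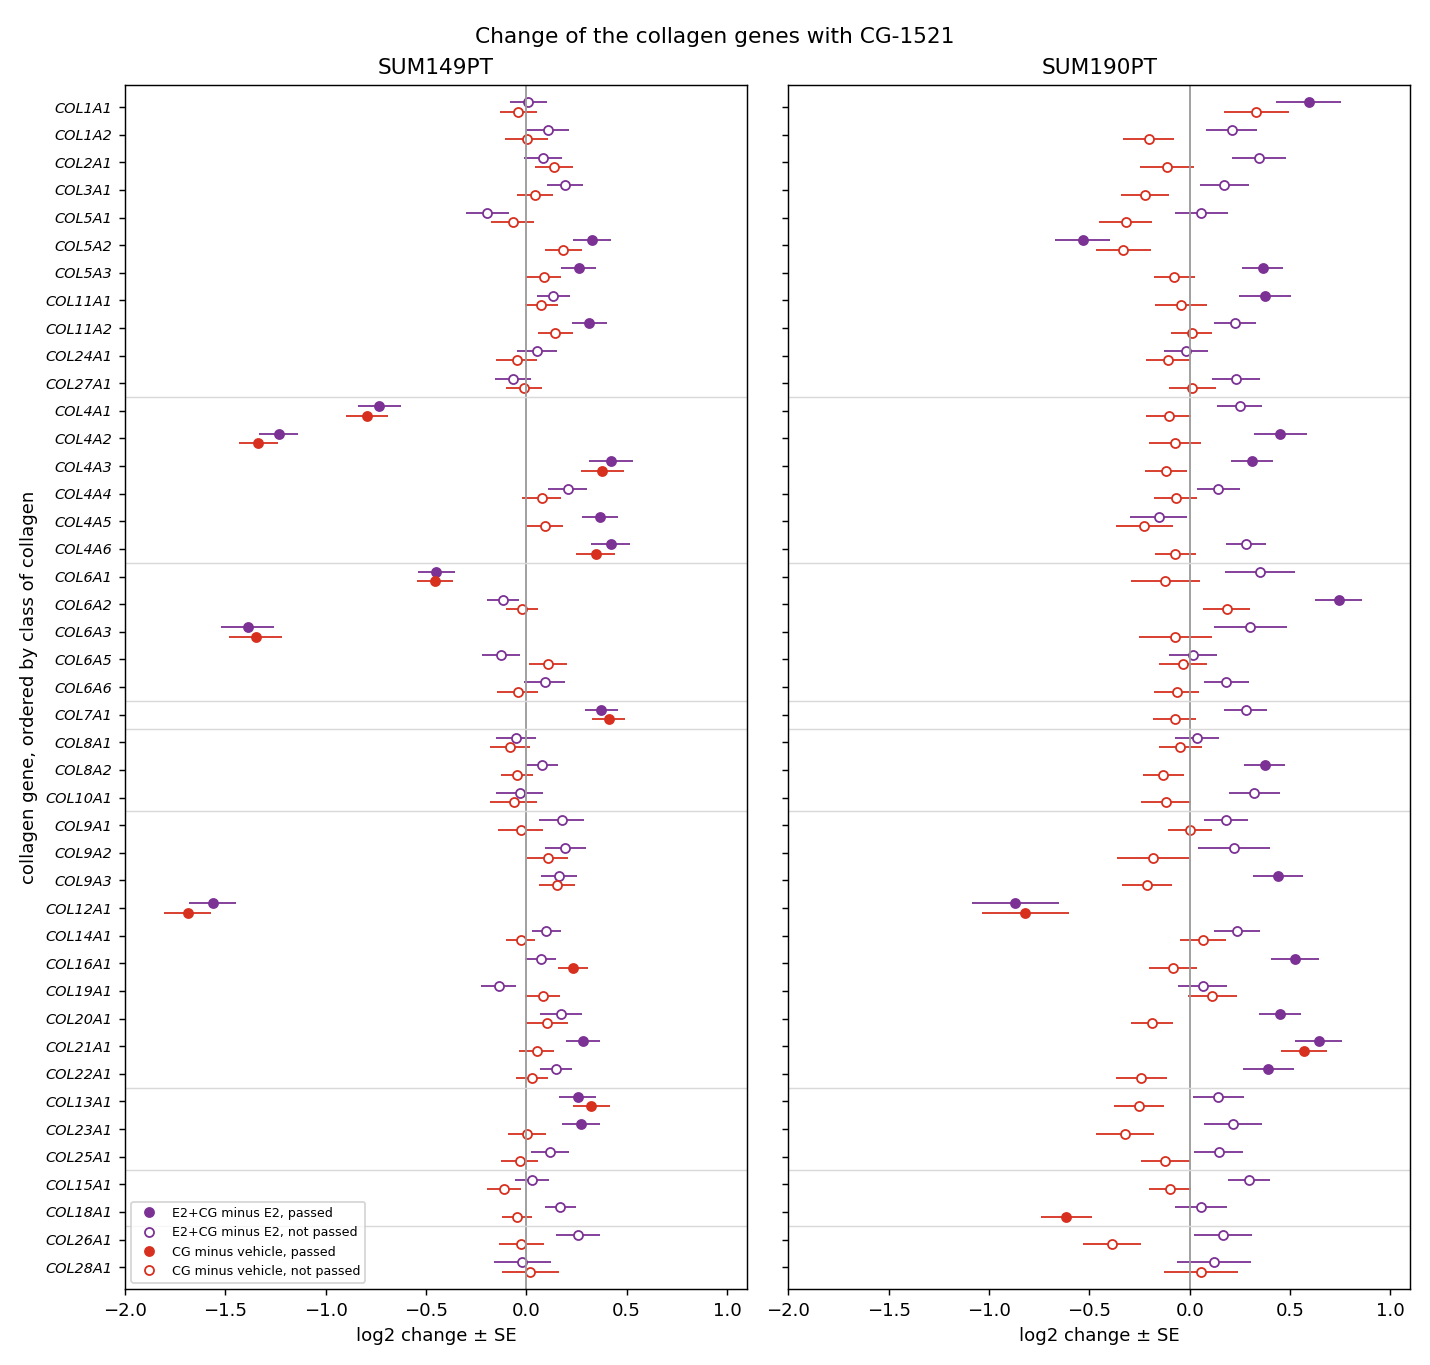
Log2 change with CG-1521 and its standard error for each of the 43 collagen genes, ordered by class with grey lines between classes, in SUM149PT (left) and SUM190PT (right). Violet shows the combination minus estradiol and red CG-1521 minus vehicle, and filled points passed; COL12A1 lies left of 0 in both lines, while COL4A1, COL4A2 and COL6A3 lie at -0.73 or lower in SUM149PT and between -0.11 and 0.45 in SUM190PT.

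Whether the lines responded differently was tested directly as a difference of responses, SUM149PT minus SUM190PT, over all 24 arrays. For CG-1521 against vehicle 11 collagen genes passed, 6 with a higher and 5 with a lower response in SUM149PT, or 25.6% of the 43, against 20.6% of all genes (9.01% higher and 11.6% lower). Among dimmer genes 24.2% of the collagen genes passed, against 11.2% of all, and among brighter genes 30.0%, against 30.1%. Quantile normalization left 4 higher and 5 lower collagen genes, and centring of the arrays left 3 and 5. The lowest differences were those of COL6A3 (-1.28, SE 0.238), COL4A2 (-1.26, SE 0.165), COL12A1 (-0.87, SE 0.261) and COL4A1 (-0.69, SE 0.154). COL18A1 (0.57), COL13A1 (0.58), COL4A3 (0.50) and COL7A1 (0.49) lay on the other side. The COL12A1 difference lost its call without the first CG-1521 array of SUM149PT and without the third vehicle array of SUM190PT (adjusted p up to 0.069).

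For the combination against estradiol 9 collagen genes differed in response, 2 with a higher and 7 with a lower response in SUM149PT, or 20.9% of the 43, against 20.4% of all genes (10.6% higher and 9.86% lower). COL6A3 (-1.69, SE 0.238), COL4A2 (-1.68, SE 0.165), COL4A1 (-0.98, SE 0.154), COL6A2 (-0.86, SE 0.137) and COL6A1 (-0.80, SE 0.2) were the lowest. All 3 chains of the common collagen VI trimer and the COL4A1-COL4A2 pair thus passed in the same direction. For CG-1521 against vehicle, COL6A3 was the only collagen VI chain to pass. In SUM190PT these genes averaged lower with estradiol, the reference here, than in vehicle, with COL6A2 at 6.49 against 6.94 and COL4A2 at 5.18 against 5.35. The underlying changes were unlike: COL6A3 had -1.39 in SUM149PT, while COL6A2 had 0.74 in SUM190PT and did not pass in SUM149PT. The difference of response of COL12A1 was -0.69 (SE 0.261) and did not pass (limma adjusted p = 0.0641). The level in vehicle also differed between the lines in these genes, and dose and medium differed too. In both tests of response, the low SUM190PT levels of COL6A3 and COL4A1 may understate a fall in that line.

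Estradiol alone changed no collagen gene in SUM149PT (limma, 0 of 43, with 1 at an unadjusted p under 0.05), against 0% of all genes, of which 845 of 18417 had an unadjusted p under 0.05. Adding estradiol to CG-1521 in that line changed 0 of 43 (4 at an unadjusted p under 0.05), also against 0% of all genes. The changes of the 43 genes lay between -0.17 and 0.22 for estradiol against vehicle. COL12A1 had 7.33, 7.48 and 7.77 with estradiol and 7.58, 7.67 and 7.76 in vehicle, and its arrays overlapped. The interaction of estradiol and CG-1521 passed in 0 of 43 (1 at an unadjusted p under 0.05), against 0% of all genes.

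In SUM190PT estradiol alone also changed 0 of 43 collagen genes at the threshold (limma), against 0.00543% of all genes, which is 1 gene. At an unadjusted p under 0.05 there were 17 of 43 collagen genes and 4531 of 18417 genes. Of the 43, 40 lay below 0 with a median of -0.21, against -0.04 for all genes and -0.12 for all dimmer genes. Below 0 lay also 10194 of all 18417 genes and 6685 of the 9208 dimmer genes. COL9A3 and COL18A1 had the lowest values, -0.48 (SE 0.124, adjusted p = 0.0646) and -0.47 (SE 0.129, adjusted p = 0.0714). COL6A2 had 6.38, 6.39 and 6.70 with estradiol and 6.83, 6.95 and 7.04 in vehicle, a change of -0.45 (SE 0.117, adjusted p = 0.0667), which passed with the replicate number as a block (adjusted p = 0.0488).

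The count for SUM190PT estradiol was 9 genes, all lower, when all 24 arrays shared 1 fit, and 8 without the first vehicle array. Adding estradiol to CG-1521 changed 0 of 43 (3 at an unadjusted p under 0.05), against 0% of all genes. The interaction passed in 0 of 43 (22 at an unadjusted p under 0.05, as had 4159 of 18417 genes), against 0.516% of all genes (0.375% higher and 0.141% lower), with a median of 0.38 for the collagen genes and 0.04 for all genes. Its largest value was that of COL18A1 (0.67, SE 0.183, adjusted p = 0.0733), and the smallest adjusted p that of COL20A1 (0.64, adjusted p = 0.0612). The interaction count was 11 with all 24 arrays in 1 fit and 7 without the first vehicle array.

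**Figure D4:**
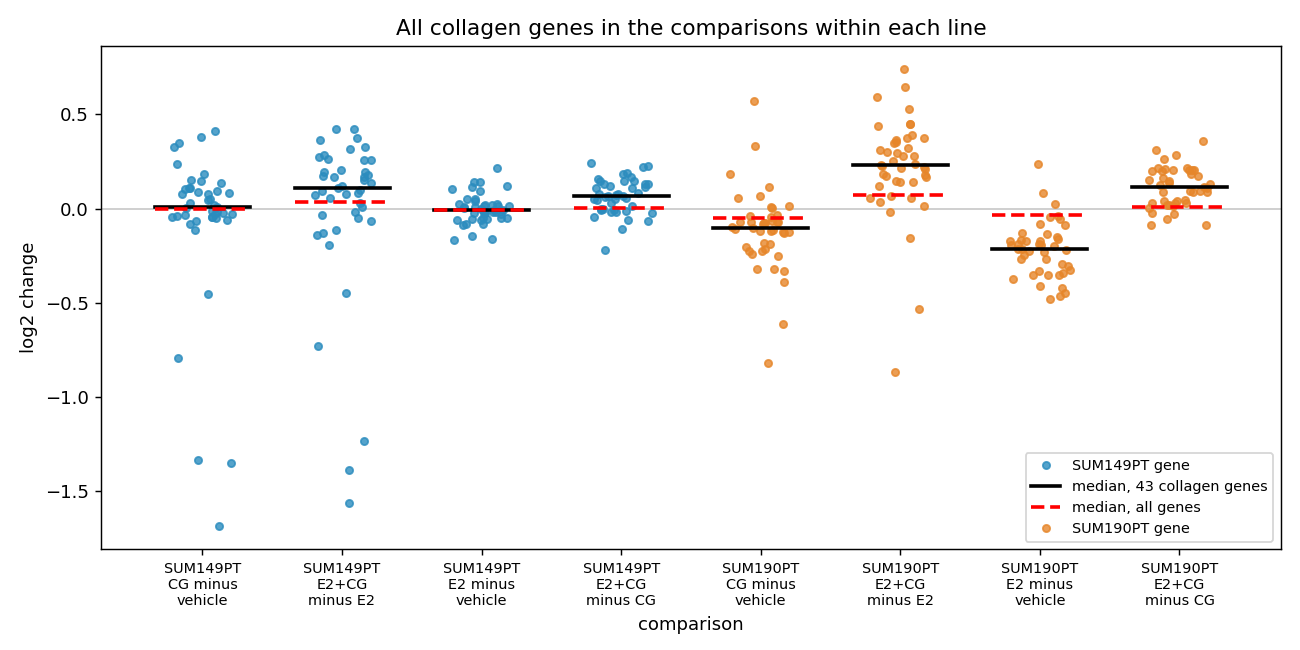
Log2 change of each of the 43 collagen genes (points) in 4 comparisons within SUM149PT and the same 4 within SUM190PT, with the median of the collagen genes (black) and of all 18417 genes (red, dashed). In SUM149PT most genes sit near 0 and a few fall far below it with CG-1521, while in SUM190PT the median is 0.23 for the combination against estradiol and -0.21 for estradiol against vehicle.

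Genes that act on collagen after its chains are made were examined as 5 lists. Of 29 measured genes for processing (hydroxylases, chaperones, export and propeptide cleavage), 7 rose and 8 fell in SUM149PT with CG-1521 (51.7%, against 34.3% of all genes). TLL1, a propeptide protease, fell by 1.97 (SE 0.113) and the collagen galactosyltransferase COLGALT1 by 1.06 (SE 0.102), while MIA2 and MIA3, which help to load collagen for export, rose by 1.32 (SE 0.0956) and 0.98 (SE 0.0866). In SUM190PT 1 rose and 7 fell (27.6%, against 16.6% of all genes). There the prolyl hydroxylase subunit P4HA2 rose by 0.94 (SE 0.146), and ADAMTS3, a propeptidase, fell by 0.85 (SE 0.204), CRTAP by 0.64 (SE 0.134) and ADAMTS14 by 0.56 (SE 0.151). The calls of ADAMTS3 and ADAMTS14 were lost without 1 or more arrays, and that of ADAMTS14 also without both replicate 3 arrays named above.

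Of 6 cross-linking enzymes, 3 fell and 1 rose in SUM149PT with CG-1521 (66.7%, against 34.3% of all genes). LOXL2, a lysyl oxidase that acts on collagen IV among others, had 7.36, 7.52 and 6.91 with CG-1521, against 9.45, 9.52 and 9.39 in vehicle. The groups did not overlap and it fell by 2.20 (SE 0.157). The transglutaminase TGM2 fell by 0.77 (SE 0.0954) and LOXL3 by 0.60 (SE 0.102), and LOX rose by 0.35 (SE 0.115), a call lost without the third vehicle array or without the first or the third CG-1521 array. In SUM190PT 0 of 6 passed, against 16.6% of all genes (limma, 0 also at an unadjusted p under 0.05). In vehicle 5 of the 6 were higher in SUM149PT than in SUM190PT and 0 lower (24.5% and 22.1% of all genes), with LOXL2 at 4.12 (SE 0.169), LOX at 3.81 (SE 0.146), TGM2 at 2.53 (SE 0.156) and LOXL1 at 1.62 (SE 0.122).

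Of 11 collagen-degrading proteases and inhibitors, 6 rose and 1 fell in SUM149PT with CG-1521 (14.4% and 19.9% of all genes). The interstitial collagenases MMP1 and MMP13 rose by 2.85 (SE 0.211) and 2.51 (SE 0.133), the inhibitor TIMP4 by 1.28 (SE 0.0999) and the membrane protease MMP14 by 0.69 (SE 0.0971). MMP1 had 6.51, 5.81 and 6.96 with CG-1521, against 3.78, 3.59 and 3.37 in vehicle, and the groups did not overlap. In SUM190PT 0 of 11 passed with CG-1521 alone, against 16.6% of all genes (limma, 0 at an unadjusted p under 0.05). With the combination against estradiol, MMP14 and MMP2 rose there by 0.84 (SE 0.172) and 0.63 (SE 0.173). The MMP2 call was lost without the third estradiol array or without the first or second array of the combination. It was also lost without both replicate 3 arrays named above and under quantile normalization. In vehicle 6 were higher and 2 lower in SUM149PT (72.7%, against 46.7% of all genes), led by the inhibitor TIMP1 at 3.05 (SE 0.163) and MMP2 at 2.09 (SE 0.145), with TIMP4 at 1.55 and the cathepsin CTSK at -1.19.

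Of 9 collagen receptors 2 rose and 0 fell in SUM149PT with CG-1521 (22.2%, against 34.3% of all genes), and 1 rose in SUM190PT (11.1%, against 16.6%). The integrin ITGA2 rose in both lines, by 0.83 (SE 0.107) in SUM149PT and by 1.21 (SE 0.337) in SUM190PT, and the receptor kinase DDR1 rose by 0.38 (SE 0.0921) in SUM149PT. The ITGA2 call in SUM190PT was lost without the first or second vehicle array and without the first or the third CG-1521 array. In vehicle 3 receptors were higher and 2 lower in SUM149PT (55.6%, against 46.7% of all genes), among them ITGB1 at 1.94 (SE 0.132) and ITGA2 at 1.04 (SE 0.266). Of 13 other basement membrane chains 2 rose and 2 fell in SUM149PT with CG-1521 (30.8%, against 34.3% of all genes): LAMA4 and LAMB1 fell by 2.07 (SE 0.114) and 0.86 (SE 0.0828) and LAMB3 and LAMB2 rose by 1.75 (SE 0.0872) and 0.47 (SE 0.0928). LAMB3 belongs to the laminin of epithelial anchoring complexes, the side of the basement membrane that collagen VII attaches to.

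In SUM190PT with CG-1521 LAMB3 and LAMC1 rose by 1.21 (SE 0.155) and 1.14 (SE 0.155) and NID2 fell by 0.41 (SE 0.131), a call lost without any 1 of the 6 arrays compared. In vehicle 7 of the 13 chains were higher in SUM149PT and 0 lower (24.5% and 22.1% of all genes), with LAMB1 at 5.35, LAMB3 at 4.95, LAMA4 at 3.31 and LAMC1 at 2.51. The combination against estradiol raised 6 of 13 in SUM190PT and lowered 0 (12.5% and 13.2% of all genes). The 5 lists describe named genes and were not tested as sets.

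In SUM149PT the mean of 9 fibroblast markers, none of them a collagen, lay between 4.41 and 4.46 on the CG-1521 arrays and between 4.75 and 4.87 on the vehicle arrays. Of the 9, 2 passed in SUM149PT with CG-1521 (22.2%, against 34.3% of all genes), both lower, and the median change was -0.04. FAP, a cell-surface protease, had 5.67, 6.01 and 5.92 with CG-1521 against 8.03, 8.13 and 8.11 in vehicle, and fell by 2.22 (SE 0.0887), and DCN fell by 0.96 (SE 0.177). LUM and PDGFRA, also of this list, averaged 2.80 and 3.94 with CG-1521 and 2.84 and 3.97 in vehicle, near the low end of the table (minimum 1.7). In SUM190PT the list's mean lay between 4.08 and 4.32 on all arrays. The part of these markers in the collagen results was not tested.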

How the data were processed

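RNA from 24 cultures was amplified (NuGEN pico system) and hybridised to Human Gene 1.0 ST arrays, per the labels' protocols. The deposited values are log2 expression made with RMA in Affymetrix Expression Console, per the submitters' processing notes, with versions not given in the sources used here; no source says whether RMA was run over both lines at once. RMA pulls the arrays towards a common distribution, so much of a shift of most genes is removed. Differences remained: the median of all genes ran from 5.99 to 6.15 over the arrays. The median of the dimmer genes in SUM190PT was 4.38 to 4.46 with estradiol, 4.55 to 4.60 with the combination and 4.50 to 4.63 in vehicle. Of 33297 probe sets, 19460 carried 1 symbol, 1754 several and 12083 none listed, which left 18417 genes. COL11A2 had more than 1 probe set. limma 3.58.1 (R 4.3.3) fitted the 12 arrays of a line for comparisons within it, and all 24 for comparisons of lines, with Benjamini-Hochberg adjustment over all genes. The fit was tested on simulated data. The number of arrays limits the precision. Genes were named by a rule: all members, and for other lists the 4 largest called changes per list. Members and lists were chosen with earlier results of these data known. All 3 correlations of same-numbered arrays exceeded 0.1, taken as pairing, for estradiol against vehicle (0.443, 0.229 and 0.729) in SUM190PT, and there also when estradiol was added to CG-1521 (0.518, 0.434 and 0.502); in SUM149PT the same comparisons had 0.23, 0.15 and 0.054, and 0.144, 0.097 and 0.11. Alternatives changed normalization, probe choice, filter, prior, arrays fitted and block.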

Additional observations from a re-analysis of the deposited data

Results flagged for a closer look

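The response to CG-1521 against vehicle differed between the lines in 11 collagen genes by a test of the difference itself (limma over 24 arrays, SUM149PT minus SUM190PT, adjusted over all genes). The response of SUM149PT was lower for COL6A3 (-1.28, adjusted p = 0.000556), COL4A2 (-1.26, adjusted p = 1.16e-05), COL12A1 (-0.87, adjusted p = 0.0209), COL4A1 (-0.69, adjusted p = 0.00276) and COL21A1 (-0.52, adjusted p = 0.0108). It was higher for COL13A1 (0.58, adjusted p = 0.0102), COL18A1 (0.57, adjusted p = 0.00765), COL5A2 (0.52, adjusted p = 0.0301), COL4A3 (0.50, adjusted p = 0.0215), COL7A1 (0.49, adjusted p = 0.00883) and COL4A6 (0.42, adjusted p = 0.0328). The call of COL4A6 was lost under 11 alternatives and that of COL5A2 under 10, among them the one without replicate 3 of SUM190PT vehicle and estradiol (adjusted p = 0.0543).

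The response to the combination against estradiol differed in 9 genes by the same test. It was lower in SUM149PT for COL6A3 (-1.69, adjusted p = 2.2e-05), COL4A2 (-1.68, adjusted p = 1.93e-07), COL4A1 (-0.98, adjusted p = 7.59e-05), COL6A2 (-0.86, adjusted p = 8.79e-05), COL6A1 (-0.80, adjusted p = 0.00603), COL1A1 (-0.58, adjusted p = 0.0316) and COL16A1 (-0.45, adjusted p = 0.019). It was higher for COL5A2 (0.86, adjusted p = 0.00063) and COL4A5 (0.52, adjusted p = 0.0297). COL1A1 and COL4A5 each lost the call under 8 alternatives, among them the one without replicate 3 of SUM190PT vehicle and estradiol (adjusted p = 0.0512 and 0.0829). Line, dose of CG-1521 and medium cannot be told apart in these differences.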

How the results depend on the processing

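Of 75 called values of single collagen genes, 46 kept their direction and call under every alternative run, 29 lost the call under at least 1, and 0 reversed. Without the dimmest 50% of genes, 10 collagen genes were tested and the counts called were 4 and 6 in SUM149PT (CG-1521, and the combination against estradiol), 1 and 6 in SUM190PT, 5 between the lines in vehicle, and 3 and 5 for the differences of response; fewer members were tested there. With all 24 arrays in 1 fit the SUM190PT counts were 5 for CG-1521, 9 for estradiol and 11 for the interaction, and the cause was not tested. With the replicate number as a block, estradiol in SUM190PT gave 1 gene, COL6A2. The block moved no other count of collagen genes by over 1.5 times, and ended the call of COL11A1 (the combination in SUM190PT). It added COL15A1 (the combination in SUM190PT) and COL12A1 (the difference of response to the combination, limma adjusted p = 0.0235). Between the lines in vehicle, the block fit estimated the difference at replicate 3 of each line, not between the group means. Values there moved, with COL12A1 at 2.82 against 2.48. The block left 6 higher and 7 lower there, without COL16A1 and COL4A6 and with COL28A1 and COL6A6 added. These changes are therefore no check of the main calls between the lines.

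Leaving out 1 array at a time gave in SUM149PT 8 to 10 genes for CG-1521, 11 to 14 for the combination against estradiol, and 0 to 0 for estradiol, for estradiol added to CG-1521 and for the interaction. In SUM190PT it gave 2 to 4 for CG-1521, 5 to 13 for the combination against estradiol, 0 to 8 for estradiol, 0 to 7 for the interaction and 0 to 0 for estradiol added to CG-1521. It gave 11 to 15 between the lines in vehicle, and 8 to 13 and 7 to 10 for the differences of response. Without replicate 3 of both SUM190PT vehicle and estradiol, the combination against estradiol gave 15. The other lists were rerun as alternatives chosen after seeing the data: 61 of 74 named values held throughout, 13 lost the call, 0 reversed, and 15 of 25 counts moved by over 1.5 times. Of the 13, the receptor MRC2 (the lines in vehicle) lost the call only with the block. Fitting only the compared groups was not run for interactions.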
